A study of Mus musculus with 6 samples.

Results

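Bcl11a and Bcl11b are a pair of related mouse genes that encode zinc-finger transcription factors, also known as CTIP1 and CTIP2. They were examined here in maps of H3K4me1, which is the monomethylated form of lysine 4 on histone H3 and is found at active and poised enhancers. They are 2 of the 21670 protein-coding genes that were measured in the same way. The pair was selected on measured values of these same peak lists, so their coverage, signal and distal regions are given as a description and carry no test.

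The mark was mapped by CUT&Tag, an assay that tethers a cutting transposase to antibody-bound chromatin and sequences the pieces of DNA that it frees. Whisker pads of wild-type mice at embryonic day 12, strain B6/J2, gave 6 samples, namely 3 for H3K4me1 and 3 for control IgG. The pads were dissociated into single cells, with no sort named in the methods, so a sample can hold mesenchyme, surface ectoderm, nerve and other cells together, and the share of cells that carry a mark cannot be read from a peak. The 3 H3K4me1 samples are called replicates 1, 2 and 3 after their titles, and the IgG samples were not analysed here. The sources do not say whether the pads came from different embryos, so the spread between replicates may be technical in part.

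The peak lists of replicates 1, 2 and 3 held 16788, 12969 and 13998 peaks and covered 63.3, 59.5 and 57.1 Mb of the genome. Sequencing depth was not recorded in the lists. The titles name whisker pads in every case, but the source name of the H3K4me1 samples of replicates 2 and 3 is adult kidney. A peak lay at 15 of 16 facial mesenchyme genes in all 3 replicates (93.8%), and at 16, 16 and 15 of them in replicates 1, 2 and 3. Of 18 adult kidney genes, 6, 7 and 3 had a peak in replicates 1, 2 and 3, and 3 had one in all replicates (16.7%), which is near the 15.5% of all genes. Those 3 were Emx2, Cubn and Slc12a1, while 11 of the 18, among them Umod, Nphs1, Slc34a1 and Hnf4a, had no peak in any replicate. The 15.5% is for a peak in all replicates, so it is no background for the counts of single replicates, and none is given here. The values of replicate 1, whose labels do not conflict, are given beside those of the others for the main measures.

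Both proteins act mainly as repressors. They join the BAF (SWI/SNF) chromatin remodeling complex and bind the NuRD deacetylase complex, and they were first found as partners of the COUP-TF orphan receptors, which are encoded by the Nr2f genes. Bcl11a is best known for silencing embryonic and fetal globin genes in red cells and for its roles in B cells and neurons. Bcl11b is best known for committing thymocytes to the T cell lineage, and it also acts in the epidermis, in the enamel-forming cells of the tooth and in the craniofacial skeleton.

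The first letters shown are those under the highest H3K4me1 signal of each gene, because the position of that maximum differed between the paralogs. Each window is 300 bases of the plus strand of GRCm38.p6. The Bcl11a window and the replicate 2 window of Bcl11b are centered on the maximum. The Bcl11b window of replicates 1 and 3 is centered between their maxima, which span 126 bp. Capitals mark 3 short motifs that were searched on both strands. TGACCA, read as TGGTCA on the other strand, is a site known to be bound by the zinc fingers of Bcl11a. CTTTGAT and CTTTGAA are sites of the LEF and TCF factors, which act with beta-catenin. The windows are chr11:24091789-24092088 in Bcl11a, chr12:107978251-107978550 in Bcl11b for replicates 1 and 3, and chr12:107965728-107966027 in Bcl11b for replicate 2.
Bcl11a, all replicates: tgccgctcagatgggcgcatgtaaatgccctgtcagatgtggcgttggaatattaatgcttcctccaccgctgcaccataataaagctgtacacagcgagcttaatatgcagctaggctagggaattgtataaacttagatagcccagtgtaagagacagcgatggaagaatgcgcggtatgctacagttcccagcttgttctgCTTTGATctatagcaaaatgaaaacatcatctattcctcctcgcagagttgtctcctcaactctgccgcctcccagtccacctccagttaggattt
Bcl11b, replicates 1 and 3: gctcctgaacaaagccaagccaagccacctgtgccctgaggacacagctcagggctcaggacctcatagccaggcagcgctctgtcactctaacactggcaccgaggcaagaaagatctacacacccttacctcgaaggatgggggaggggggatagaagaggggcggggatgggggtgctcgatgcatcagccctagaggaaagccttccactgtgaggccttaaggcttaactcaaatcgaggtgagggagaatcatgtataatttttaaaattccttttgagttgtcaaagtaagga
Bcl11b, replicate 2: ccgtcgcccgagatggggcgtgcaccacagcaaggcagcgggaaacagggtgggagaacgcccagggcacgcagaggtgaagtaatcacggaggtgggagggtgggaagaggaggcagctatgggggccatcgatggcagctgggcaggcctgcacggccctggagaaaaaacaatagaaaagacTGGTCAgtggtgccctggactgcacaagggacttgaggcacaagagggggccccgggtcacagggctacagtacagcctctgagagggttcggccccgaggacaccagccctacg

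The Bcl11a window held 1 CTTTGAT, the replicate 2 window of Bcl11b held 1 TGACCA site, and the window of replicates 1 and 3 held none of the 3 motifs. Among 8912 windows of the same length around the maxima of regions found in all 3 replicates, TGACCA was present in 14.5%, CTTTGAT in 3.95% and CTTTGAA in 5.44%. A match is a match of letters and not a measured binding site. GC content was 47.3% in the Bcl11a window, 52.7% in the Bcl11b window of replicates 1 and 3, and 63.7% in that of replicate 2, beside a median of 52% over those windows. The soft-masked share of the genome sequence, which marks repeats, was 2.67%, 26% and 13.7%.

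Bcl11a (ENSMUSG00000000861.15) lies on the plus strand at chr11:24078056-24174123 in GENCODE vM21 and is 96.1 kb long. Bcl11b (ENSMUSG00000048251.15) lies on the minus strand at chr12:107910403-108003602 and is 93.2 kb long. The paralogs are thus alike in length, and both stand beside long stretches without protein-coding genes. The nearest such gene past the 3′ end of Bcl11a, 5730522E02Rik, is 1429 kb away, and the nearest on the other side, A830031A19Rik, is 3.00 kb away. The nearest past the 3′ end of Bcl11b, 3110018I06Rik, is 421 kb away, and Setd3, on the other side, is 103 kb away. Leaving out gene models with provisional Rik or Gm names, the neighbors were Papolg at 183 kb and Fancl at 2212 kb for Bcl11a, and Setd3 and Vrk1, the latter at 1833 kb, for Bcl11b. Papolg, Fancl, Setd3, Vrk1 and 3110018I06Rik had no peak in the gene body with 5 kb flanks in any replicate. A830031A19Rik had 2 peaks in replicate 3 and none in the others, and 5730522E02Rik had 4, 1 and 3.

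The first comparison asked how much of each gene the mark covered. A peak was counted at a gene where it overlapped the gene body extended by 5 kb on both sides, and 15.5% of the 21670 genes had such a peak in all 3 replicates, as both paralogs did. At Bcl11a, peaks covered 55.2, 56.1 and 53.2 kb in replicates 1, 2 and 3, a mean of 54.8 ± 1.49 kb (SD, n = 3). At Bcl11b they covered 75.4, 73.6 and 65.0 kb, a mean of 71.3 ± 5.58 kb (SD, n = 3). Bcl11b was covered over a greater length in each replicate, and the lowest value of Bcl11b lay above the highest value of Bcl11a. As a share of the extended gene, coverage was 52.0, 52.9 and 50.1% at Bcl11a (mean 51.7 ± 1.40, SD, n = 3). It was 73.1, 71.3 and 63.0% at Bcl11b (mean 69.1 ± 5.41, SD, n = 3). Replicate by replicate the difference was 21.1, 18.4 and 12.8 percentage points, on average 17.5 ± 4.22 (SD, n = 3), which is more than the spread between replicates. Coverage of Bcl11b was lowest in replicate 3, and coverage of Bcl11a varied little.

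**Figure D1:**
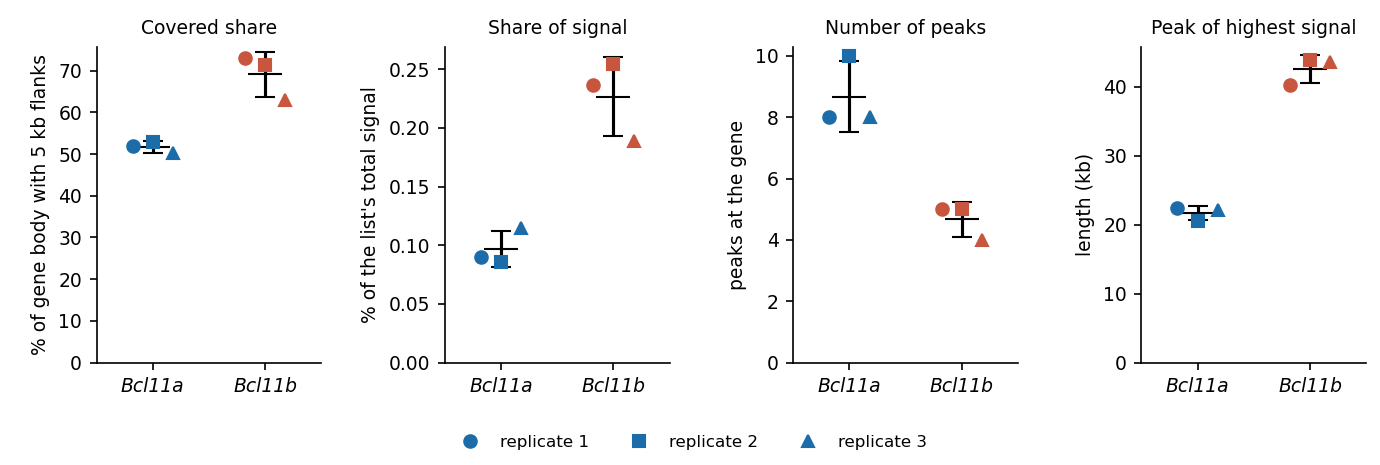
The 4 panels plot, for each replicate, the percentage of the extended gene covered, the percentage of the total signal of the list, the number of peaks and the length in kb of the peak with the highest total signal. Points are replicates and bars are the mean and SD (n = 3). Bcl11b is higher than Bcl11a in 3 of 3 replicates in the covered share, the signal share and the peak length, and lower in the number of peaks.

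The median gene had 0 kb covered, and the 90th and 99th percentiles over all genes were 5.21 and 35.7 kb. Ranked by mean covered length, Bcl11b was number 53 and Bcl11a number 96 of 21670 genes. In replicates 1, 2 and 3 taken singly, Bcl11b was number 58, 50 and 68 and Bcl11a number 105, 92 and 111. Ranked by the percentage covered, Bcl11b was number 43 and Bcl11a number 147. Among the 3983 genes of 50 to 200 kb, Bcl11b had the highest mean percentage covered and Bcl11a the 16th highest (rank 16). In that length class 2142 genes had no coverage, and the 90th percentile was 13.7%.

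**Figure D2:**
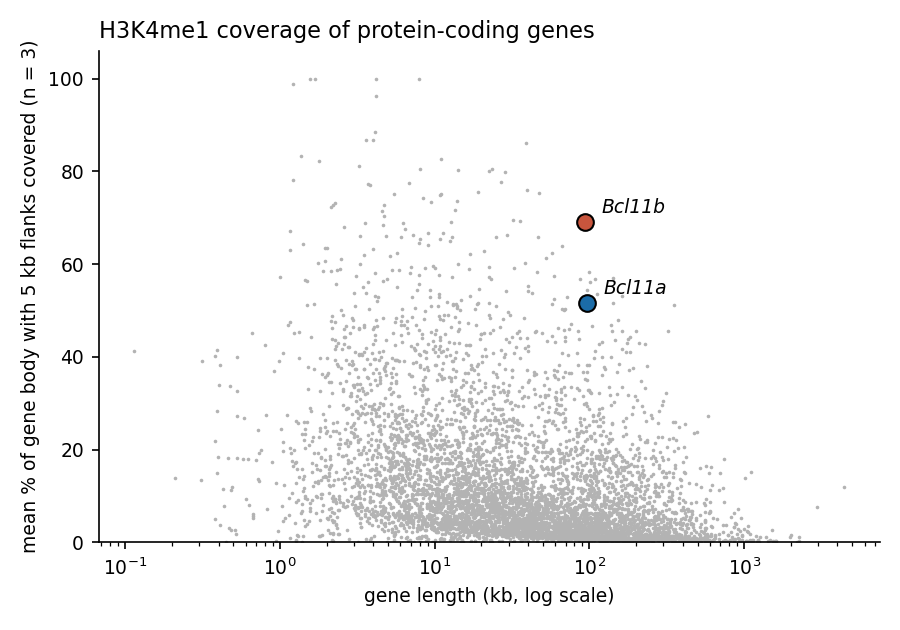
Each point is a protein-coding gene with a peak in any replicate, placed by its length in kb on a log scale and by the mean percentage of the extended gene that peaks covered (n = 3). Bcl11b (69.1%) is at the upper edge of genes of its length, and Bcl11a (51.7%) stands below it among the highest genes of that length.

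The genes nearest to each member in covered length were taken as the genes most like it, by that measure alone and over 3 replicates. For Bcl11a they were Col23a1, Itgb5 and Ephb2 just above it and Rxra, Sox6 and Klhl29 just below, with means of 54.7 to 56.1 kb. Sox6, a factor known to act with Bcl11a at globin genes, had 50.2, 40.7 and 73.3 kb covered in replicates 1, 2 and 3. For Bcl11b they were Fmnl2, Arid1b and Ext2 just above and Bnc2, Farp1 and Cachd1 just below, with means of 70.5 to 73.3 kb. Arid1b, a DNA-binding subunit of the BAF complex, had 79.2, 68.9 and 66.2 kb covered. None of these neighbors differed from its member by more than the spread between replicates. All of the neighbors except Rxra (86.5 kb) are longer genes than the member they stand beside.

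The coverage was divided differently within the paralogs. Bcl11a carried 8, 10 and 8 separate peaks in replicates 1, 2 and 3, and Bcl11b carried 5, 5 and 4. Bcl11b thus had fewer peaks over a greater length in every replicate. Joined across replicates, peaks that overlapped by at least 1 bp formed 10 regions at Bcl11a, of which 6 were present in all replicates, 2 in a pair of replicates and 2 in 1 replicate. At Bcl11b they formed 3 regions, of which 2 were present in all replicates and 1 in replicates 1 and 2.

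**Figure D3:**
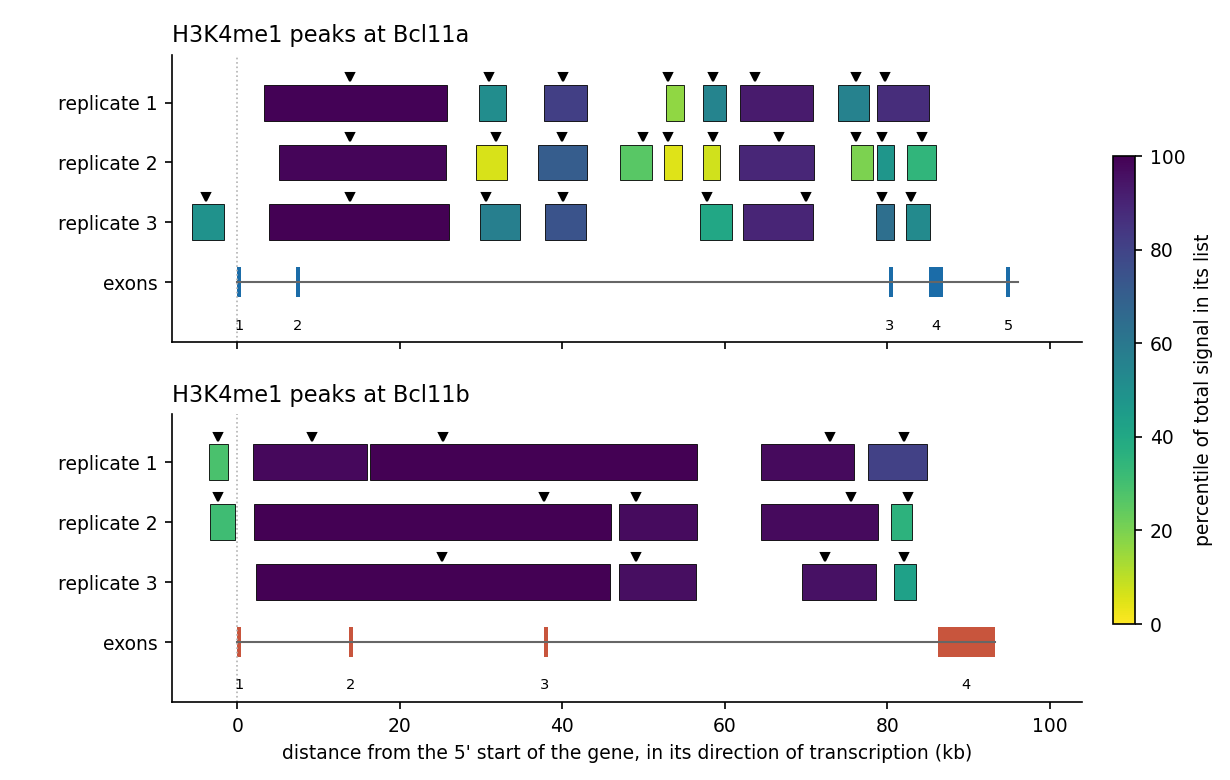
Bars are the peaks of each replicate along Bcl11a (upper) and Bcl11b (lower), drawn by distance in kb from the 5′ start in the direction of transcription and colored by their percentile of total signal in the list. Triangles are peak maxima and the numbered boxes are exons of transcripts Bcl11a-201 and Bcl11b-201. Bcl11b is covered mainly by 1 block of 54.7 kb with short gaps and Bcl11a by a 22.8 kb block followed by smaller peaks, and neither start site is under a peak.

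At Bcl11a the main region, chr11:24081396-24104147 (22.8 kb), ran from intron 1 over exon 2 into the first part of intron 2. Its peak was 22.4, 20.5 and 22.1 kb long and held 50.1, 49.6 and 59.5% of the signal at the gene. The other regions of Bcl11a were smaller. Their strength is given as a percentile, the share of peaks in the same list with a lower total signal. The next in strength was chr11:24139862-24149014 (9.15 kb), 66.4 kb from the 5′ start in intron 2, at percentiles 92.8, 89.3 and 89.8 of total signal in replicates 1, 2 and 3. Of the regions present in all replicates, that with the lowest mean percentile, chr11:24135057-24138880, stood at percentiles 54.8, 7.22 and 40.5. Another, chr11:24107397-24112852, was lower in replicates 1 and 2, at percentiles 51.4, 6.09 and 57.3. Intron 2, which is 72.6 kb long, was covered over 63.3 ± 4.76% (SD, n = 3) and held 83.9% of the covered length of the gene.

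At Bcl11b the main region, chr12:107946975-108001688, was the second longest (rank 2) of the 8916 regions found in all 3 replicates. It ran from intron 1 through exons 2 and 3 into intron 3. Each list split it into 2 peaks. Replicate 1 had a gap in intron 2, between peaks of 40268 and 14028 bp. Replicates 2 and 3 instead had a gap in intron 3, beside peaks of 43.9 and 43.7 kb. Intron 1 was covered over 88.1 ± 1.31%, intron 2 over 99.5 ± 0.833% and intron 3 over 70.0 ± 8.49% (SD, n = 3). The other region found in all replicates, chr12:107918724-107939170 (20.4 kb), lay wholly in intron 3, and its highest peak stood at percentiles 97.5, 97.4 and 95.6.

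Some features were shared by the paralogs. At both genes and in each replicate, exon 1 was covered over 0% and exons 2 and 3 over 100%. Coverage ended before the 3′ end of either gene. The last exon and the 5 kb past it had no coverage at Bcl11a or Bcl11b in any replicate, and intron 4 of Bcl11a had none. Exon 4 of Bcl11a, the long exon that encodes most of its zinc fingers, was covered over 3.44, 51.3 and 7.92%, and exon 4 of Bcl11b, which has that role in the paralog, over 0% in each replicate.

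None of the 4 protein-coding start sites of Bcl11a and neither of the 2 of Bcl11b lay under a peak in any replicate. The same was true of 52.7% of the 3360 genes with a peak in all replicates, so an uncovered start site was common among marked genes. From the 5′ start of Bcl11a, the nearest peak downstream was 3.34, 5.11 and 3.94 kb away in replicates 1, 2 and 3. Upstream it was 1.62 kb away in replicate 3, and 1114 and 1729 kb away in replicates 1 and 2. From the 5′ start of Bcl11b the nearest peak downstream was 1.91, 2.10 and 2.26 kb away. Upstream it was 1.09 and 0.221 kb away in replicates 1 and 2 and 65.7 kb away in replicate 3. The upstream flank was thus marked in replicate 3 alone at Bcl11a and in replicates 1 and 2 at Bcl11b. That peak at Bcl11a, chr11:24072519-24076439, stood at percentile 49.2 and also spans the 5′ start of A830031A19Rik, at chr11:24075054 on the minus strand. The RefSeq promoter windows of 300 bases differed in base composition. They are not placed alike. That of Bcl11a, chr11:24080445-24080744, lies past the 5′ start used above and spans the last of its 4 start sites. That of Bcl11b, chr12:108003365-108003664, spans its 5′ start. GC content was 63% with 23 CpG sites at Bcl11a and 43% with 9 CpG sites at Bcl11b, beside medians of 52.7% and 7 over 32851 promoters of GRCm38.p6.

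The second comparison concerned signal strength. The total signal of a peak adds up the fragment pileup of all its bases and was not scaled to depth, so it was compared by percentile and rank within a list, as a share of the signal of the list, and as a multiple of the median peak. The peak of Bcl11a with the highest total signal held 372318, 420731 and 506548 units in replicates 1, 2 and 3. That of Bcl11b held 1405875, 1826876 and 1059016. The Bcl11a peak ranked 113, 178 and 22 in the 3 lists, at percentiles 99.3, 98.6 and 99.8, and stood at 13.5, 9.37 and 14.4 times the median peak. The Bcl11b peak ranked 6, 4 and 3, at percentiles 99.96, 99.97 and 99.98, and stood at 50.9, 40.7 and 30.1 times the median peak. By length, the Bcl11b peak was number 2, 5 and 1 of its list. Replicate 3 was the list in which Bcl11a stood highest relative to the median peak, and the list in which Bcl11b stood lowest.

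The peaks at Bcl11a together held 0.0903, 0.0860 and 0.114% of the signal of the 3 lists (mean 0.0969 ± 0.0153, SD, n = 3), and those at Bcl11b held 0.236, 0.254 and 0.189% (mean 0.227 ± 0.0338). The ratio of Bcl11b to Bcl11a was 2.62, 2.96 and 1.65, so the difference was in the same direction in each replicate and smallest in replicate 3. By signal share Bcl11b was number 22 and Bcl11a number 136 of 21670 genes. Signal divided by length over all peaks at the gene was 1.35, 1.15 and 1.44 times the list median at Bcl11a. At Bcl11b it was 2.59, 2.59 and 1.96 times, so it was higher there in each replicate. The maximum signal did not differ in the same direction in each replicate. The maximum of the strongest peak was 176, 192 and 201 at Bcl11a and 220, 223 and 113 at Bcl11b, so Bcl11b was higher in 2 of 3 replicates and lower in replicate 3. By signal divided by length, the Bcl11a peak stood at percentiles 87.5, 85.0 and 97.2 and the Bcl11b peak at 99.2, 99.1 and 98.0.

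The place of the maximum was reproduced to the base at Bcl11a. In each of the 3 lists it was chr11:24091938-24091939, in intron 2, 13.9 kb from the 5′ start and inside the first window printed above. Of the 8916 regions present in all replicates, 1.31% had maxima with the same start and end in the 3 lists, and 6.58% had maxima that shared at least 1 bp. At Bcl11b the maximum was in intron 2 in replicates 1 and 3, at chr12:107978338 and chr12:107978463, 25.3 and 25.1 kb from the 5′ start, and at the edge of exon 3 in replicate 2, at chr12:107965878, 37.7 kb from the 5′ start. The other 5 regions of Bcl11a present in all replicates did not share a maximum.

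The replicates differed in signal share with base composition across the genome, and the paralogs stood on different sides of that difference. The regions found in all replicates were divided into 10 classes of about equal size by GC content. The median log2 ratio of signal share of replicate 3 over replicate 2 went from 0.92 in the lowest class to -0.90 in the highest. The main region of Bcl11a had a GC content of 43.7% and a log2 ratio of 0.67, beside a median of 0.61 in its class. The main region of Bcl11b had a GC content of 50.4% and a log2 ratio of -0.39, beside -0.34 in its class. The medians over regions present in all replicates were 0.55 for 6 regions at Bcl11a and -0.45 for 2 regions at Bcl11b. The part of base composition in the smaller ratio between the paralogs in replicate 3 was not tested.

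**Figure D4:**
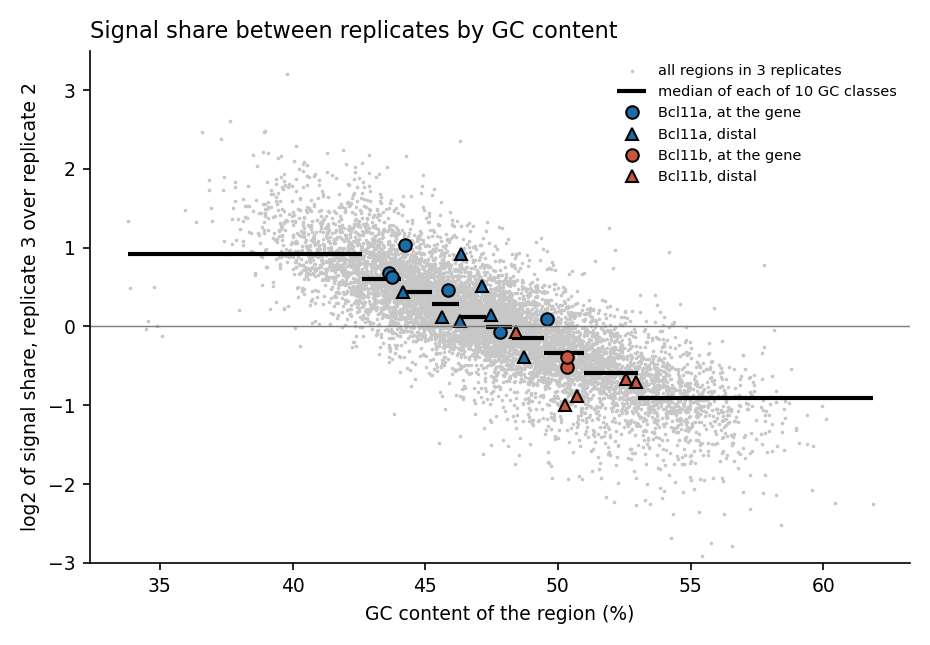
Gray points are the 8916 regions found in all 3 replicates, by GC content in % and the log2 ratio of signal share of replicate 3 over replicate 2, and black lines are the medians of 10 classes by GC content. The regions of Bcl11a lie mostly at lower GC content and above 0, and all 7 regions of Bcl11b lie below 0 and mostly at higher GC content.

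The third comparison concerned distal peaks, defined as peaks outside the extended gene, within 1 Mb of the gene body, whose midpoint was nearer to a protein-coding start site of the member than to that of any other gene. Nearness does not show that a region acts on the gene. Bcl11a had 13, 7 and 13 distal peaks in replicates 1, 2 and 3 (mean 11 ± 3.46, SD, n = 3), and Bcl11b had 8, 7 and 5 (mean 6.67 ± 1.53). They covered 49.6, 33.1 and 53.3 kb for Bcl11a (mean 45.3 ± 10.8, SD, n = 3) and 32.1, 33.2 and 23.9 kb for Bcl11b (mean 29.8 ± 5.07). Bcl11a had more distal peaks in replicates 1 and 3, and the same number as Bcl11b in replicate 2. The stretch in which a peak could be assigned was longer for Bcl11a (0.746 Mb) than for Bcl11b (0.242 Mb). As a share of that stretch, distal peaks covered 6.65, 4.44 and 7.15% for Bcl11a (mean 6.08 ± 1.44, SD, n = 3). For Bcl11b the share was 13.3, 13.7 and 9.88% (mean 12.3 ± 2.09), so the order of the paralogs turned by that measure. The stretches are not matched in distance. The farthest distal peak lay 566, 407 and 666 kb from the 5′ start of Bcl11a and 255 kb from that of Bcl11b in each replicate.

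Joined across replicates, the distal peaks of Bcl11a formed 16 regions, of which 7 were present in all replicates, 3 in a pair of replicates and 6 in 1 replicate. Those of Bcl11b formed 8 regions, of which 5 were present in all replicates, 2 in a pair of replicates and 1 in 1 replicate. A distal region in all replicates was found for 7.53% of the 21670 genes. At least as many such regions as Bcl11a were found for 0.332% of genes, and at least as many as Bcl11b for 0.674%. All distal regions of Bcl11a lay downstream of the gene. The rule fixed this outcome, since A830031A19Rik starts 3.00 kb upstream of Bcl11a and is nearer to any peak beyond the flank on that side. Bcl11b had regions on both sides, with 1 region in all replicates upstream of its start, chr12:108066924-108072512, 66.1 kb away and at percentiles 91.2, 85.3 and 61.8.

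The strongest distal region of Bcl11a, chr11:24368132-24374969 (6.84 kb), lay 293 kb from the 5′ start, at percentiles 94.7, 93.5 and 95.8 of total signal in replicates 1, 2 and 3. A neighbor 285 kb from the start, chr11:24360434-24365309, stood at percentiles 91.1, 88.0 and 90.3. The strongest distal region of Bcl11b, chr12:107751935-107760332 (8.40 kb), lay 247 kb from the 5′ start, at percentiles 94.0, 92.9 and 86.1. Beside it, 255 kb from the start, chr12:107745872-107751373 stood at percentiles 86.9, 85.8 and 85.9. None of the distal regions reached the percentile of the strongest peak in the gene itself. The remaining distal regions present in all replicates had mean percentiles from 46.5 to 76.6 for Bcl11a and from 58.9 to 79.9 for Bcl11b.

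The assignment of distal peaks depended on provisional gene models. When the start sites of Rik and Gm genes were left out, a choice made after seeing the data, Bcl11b had 22, 17 and 14 distal peaks and Bcl11a had 15, 7 and 16. Bcl11b then had 11 regions in all replicates and Bcl11a still had 7, so the paralog with more distal regions changed. In replicate 3 Bcl11a then had an upstream distal peak, at -18.3 kb from its 5′ start and percentile 65.1. The stretch open to assignment was then 0.971 Mb for Bcl11b and 1.08 Mb for Bcl11a. Distal peaks covered 7.64, 7.66 and 5.86% of it for Bcl11b and 5.01, 3.06 and 5.94% for Bcl11a. By that share Bcl11b was thus higher in replicates 1 and 2 and not in replicate 3. The strongest region added to Bcl11b, chr12:107651811-107660027 (8.22 kb), lay 348 kb from its 5′ start, at percentiles 96.9, 96.4 and 96.5, above each distal region assigned to either gene by the first rule. Another, 290 kb from the start and 10.99 kb long (chr12:107708421-107719407), stood at percentiles 83.8, 92.3 and 72.6. Both regions are nearer to the start of 3110018I06Rik, which itself had no peak in the gene body with flanks.

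**Figure D5:**
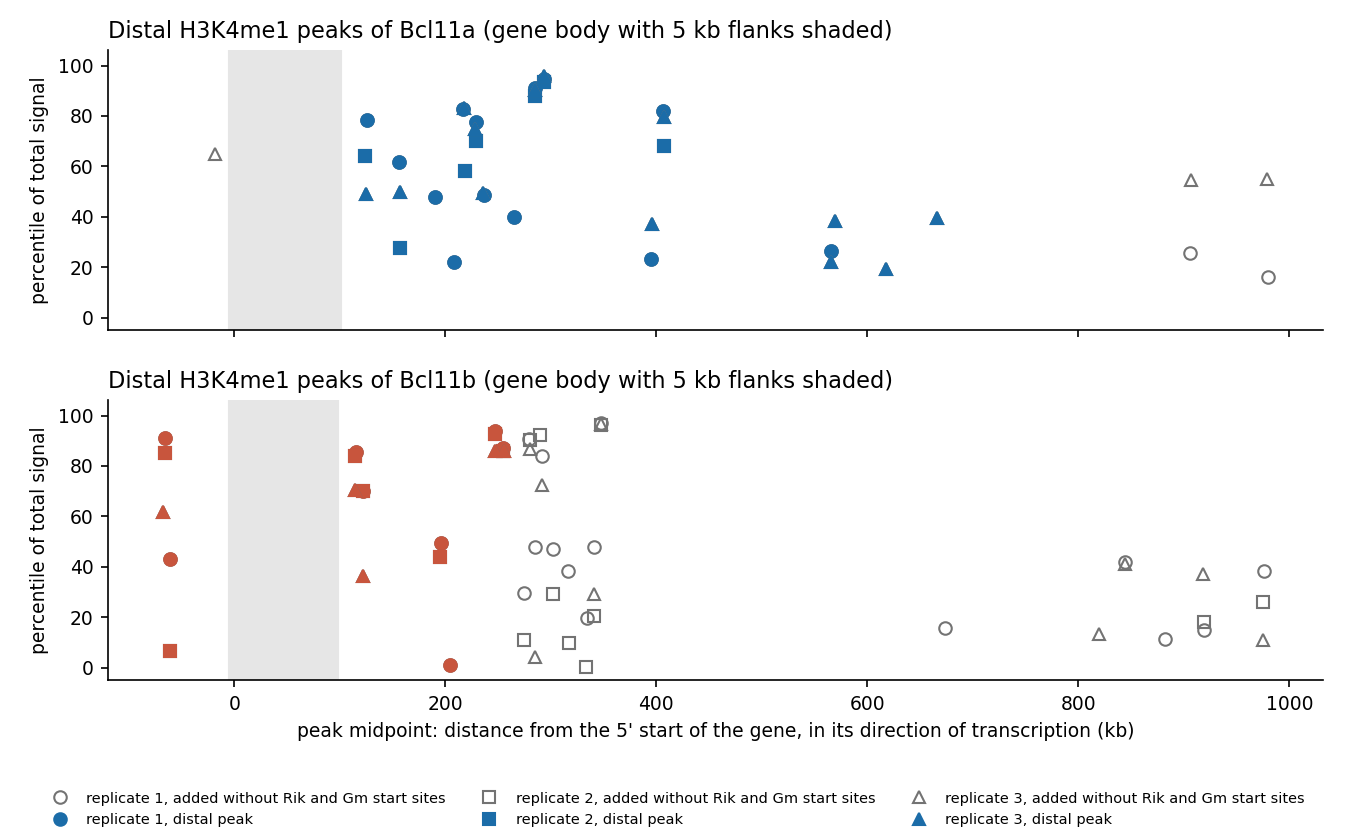
Each point is a distal peak, placed by the distance of its midpoint in kb from the 5′ start in the direction of transcription and by its percentile of total signal in the list. Filled points are assigned with all protein-coding start sites, and open points are added when Rik and Gm start sites are left out. The added points of Bcl11b from 275 to 348 kb include its strongest distal region, with percentiles of 96.4 to 96.9.

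The partners of the encoded proteins were examined by the same count of genes with a peak in all replicates, read beside the 15.5% of all genes. In the BAF complex list 7 of 26 genes had such a peak (26.9%), in the NuRD list 4 of 15 (26.7%) and in the list of other corepressors and partners 7 of 19 (36.8%). Partners with a great mean covered length were Arid1b (71.5 kb), Sox6 (54.7 kb), Smarca2 (15.7 kb) and Nr2f1 (13.6 kb). Smarca2 encodes an ATPase of the BAF complex and Nr2f1 the COUP-TFI receptor. The lists differ in gene length, which sets how much can be covered. At Smarca2 the covered length was 14.77, 15.99 and 16.20 kb in replicates 1, 2 and 3, and at Nr2f1 it was 14.7, 14.4 and 11.7 kb. Smarca2 varied little, and Nr2f1 was lowest in replicate 3.

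Lists of genes of other cell types were read beside the same 15.5%, which applies to counts in all replicates and not to those of single replicates. Of 12 T cell genes 1 had a peak in all replicates (8.33%), Tcf7, which encodes a TCF factor also used outside T cells. Of 8 B cell genes 1 did (12.5%), Cd79b, with 4, 3 and 1 of them marked in replicates 1, 2 and 3. Of 10 erythroid genes none had a peak in any replicate. Of 14 surface ectoderm genes 5 had a peak in all replicates (35.7%) and of 10 sensory neuron genes 1 did (10%). In replicates 1, 2 and 3 the surface ectoderm count was 10, 10 and 5. The genes with a peak in all replicates in the T cell, B cell, surface ectoderm and sensory neuron lists had a mean covered length of 3.73 kb (Tcf7) to 18.5 kb (Grhl3), below both paralogs. From which cells of the pad the signal at Bcl11a and Bcl11b came was not tested.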

How the data were processed

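Per the labels and the study's methods, reads were aligned to mm10, with Bowtie2 2.3, SAMtools 0.1.19, bedtools and SEACR 1.3 named in the submitters' processing notes. The authors called peaks per replicate in stringent mode without IgG, keeping the top 1% of signal blocks. Each deposited list gives position, total signal, maximum signal and the place of the maximum. Signal is fragment pileup, unscaled, and the lists give neither depth nor a counting interval. The study's methods state a sequencing depth for the samples, which was not used here. Positions were converted to start at base 1.

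Genes, transcripts and start sites came from GENCODE vM21, for protein-coding genes of the autosomes and X. Coverage, percentiles within a list (share of peaks with lower total signal), nearest start sites, regions merged at an overlap of 1 bp, GC content and motifs were computed in Python 3.11.15 with numpy 2.4.6, and figures were drawn with matplotlib 3.10.9. The functions were tested on simulated data. Replicates were summarised as mean ± SD. One group has peak lists, so no test between groups was made.

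The members, partner lists and marker lists were chosen with earlier results of these data known. Named genes were the members, their flanking genes, the 3 genes above and below each by covered length, and the 5 partners with the greatest mean covered length, of which 1 is not reported here. The marker genes named were picked after their values were seen. Alternatives were the flank, peak strength, peak measure, distal limit, placing by the maximum, start sites, overlap and each replicate left out. Chosen after seeing the data were leaving out Rik and Gm start sites, joining peaks under 1 kb apart, replicate 1 alone, and leaving replicates out of the signal share.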

Additional observations from a re-analysis of the deposited data

How the results depend on the processing

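Of 101 alternative values of results with a replicate SD, 85 were counted as the same and 16 as moved. The same meant a change of less than that SD or, for counts of distal peaks, a value within 1.5 times the one reported. Leaving out 1 of 3 replicates cannot move a mean by as much as the SD. Values of that kind judged by the SD were thus bound to count as the same and are no check. Of 18 alternative counts of regions in all replicates, which have no SD, 17 stayed within 1.5 times the count reported and 1 did not. Counted over the remaining pair of replicates, Bcl11a had 10 such regions without replicate 2 and Bcl11b had 7 without replicate 3. The difference in percentage covered, Bcl11b minus Bcl11a, was above 0 in 9 of 9 alternatives. It was above 0 in each replicate, so leaving a replicate out or taking replicate 1 alone was bound to give a value above 0. Those alternatives are no check of its direction. With no flank the percentage covered was 55.9% at Bcl11a and 74.6% at Bcl11b, and with a 20 kb flank 41.4% and 54.4%, a difference of 13.0 points. Keeping the stronger 50% of each list gave Bcl11a 44.9 kb and 42.3% covered, a difference of 23.3 points, and 6 distal peaks over 30.3 kb. The strongest 10000 peaks gave 47.6% at Bcl11a. Ranked by signal divided by length, the strongest peak stood at percentile 89.9 for Bcl11a and 98.7 for Bcl11b. By maximum signal the means were 98.99 for Bcl11a and 98.8 for Bcl11b, a difference of -0.209 ± 1.48 (SD, n = 3). That turned order of the means came from replicate 3, since Bcl11b was higher in 2 of 3 replicates. These alternatives changed the window, the peaks kept or the measure. Without Rik and Gm start sites Bcl11b had 17.7 distal peaks on average over 68.5 kb, and 11 regions in all replicates. Leaving out each replicate in turn gave a difference of 15.6 to 19.8 points, 54.2 to 55.6 kb covered at Bcl11a and 69.3 to 74.5 kb at Bcl11b, and 10 to 13 distal peaks at Bcl11a and 6 to 7.5 at Bcl11b. Replicate 1 alone gave a difference of 21.1 points. No paired analysis was possible because only H3K4me1 lists were analysed, so no test between groups was made (the IgG samples carry the replicate numbers too). The lists give no depth, so a stretch without a peak may hold signal below the threshold.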

Other observations

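The flanks of both genes held long noncoding transcripts. Gm12065, a lincRNA gene 125 kb past the 5′ start of Bcl11a, had its start under a distal peak of Bcl11a in all 3 replicates, in the region chr11:24199816-24205521. The starts of Gm12064, antisense to Bcl11a, and of the lincRNA genes Gm12066 and 4933430M04Rik lay under a peak in 1 replicate each. The start of 4930538E20Rik, the other antisense gene in Bcl11a, lay under none, nor did that of Gm15208, a lincRNA gene that overlaps the 2 strongest distal regions of Bcl11b. No share over all noncoding genes is given here, so these starts have no background. Among distal regions present in all replicates, the maxima shared a base at 1 of 5 for Bcl11b and at 0 of 7 for Bcl11a. That of Bcl11b was chr12:107886110-107892032, 115 kb from the 5′ start. Over all 8916 regions present in all replicates the share was 6.58%, and counts this small cannot be told from it.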
